A study of Rattus norvegicus with 20 samples.

Results

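The genes described here are 7 components of GABA signaling and chloride handling, taken from the 39747 genes of the count table by their symbols: Gabra2 and Gabra5, which encode α subunits of the GABA-A receptor, Gabbr1 and Gabbr2, which encode the subunits of the GABA-B receptor, the chloride importer Slc12a2 (NKCC1), the chloride exporter Slc12a5 (KCC2), and the GABA transporter Slc6a13 (GAT2). All 7 had a row. Of these, 6 passed the filter on low counts and could be tested, and Slc12a5 did not pass it. GABA-A receptors are chloride channels, so the effect of GABA on a neuron depends on the chloride gradient that the importer and the exporter set. Mature sensory neurons of the dorsal root ganglion (DRG) are known to keep chloride high with NKCC1 and to make little KCC2, and GABA therefore depolarizes them. GABA-B receptors are obligate heterodimers that act through G proteins on potassium and calcium channels.

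The libraries came from DRG of female Sprague-Dawley rats, 8 to 10 weeks old before 1 week of acclimatization, that were fed either a soy oil diet (SOD) or a fish oil diet (FOD) from 4 weeks before surgery. Chronic constriction injury (CCI) placed loose ligatures around the left sciatic nerve, sham surgery (CT) exposed it without ligation, and the study's account places tissue collection 1 week later. The 14 left libraries comprised 4 sham and 3 injured rats on soy oil (SOD-CT, SOD-CCI) and 3 sham and 4 injured rats on fish oil (FOD-CT, FOD-CCI). A further 6 contralateral libraries came from the right DRG of 3 SOD-CCI and 3 FOD-CCI rats, so that the contralateral side is that of an injured animal and not of an untouched one. Each DRG holds neurons, satellite glia, Schwann cells, and other cells, and fewer cells of a type cannot be told apart from less RNA per cell.

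Several libraries stood apart. Total counts ran from 22547190 to 54437581. Levels in CPM are counts scaled to the library total times its TMM factor. This factor was lowest in SOD-CT replicate 1, at 0.651, and at most 1.13. The summed level of 8 spinal cord glia genes was 2440 to 3656 CPM in 3 libraries, against 9.42 to 103 in the other 17. These 3, FOD-CT replicate 1, FOD-CCI replicate 1, and FOD-CCI contralateral replicate 1, are called the spinal cord libraries below. The contralateral library of this trio had a summed level of 15 sensory neuron genes of 4418 CPM, and the other 19 libraries had between 14274 and 37864. Within this list, Calca, Scn9a, Scn10a, Isl1, Pou4f1, Avil, and P2rx3 were lower in all 3 spinal cord libraries than in any of the 17. Scn10a, for example, was at most 67.4 CPM against at least 120 CPM. The ranges of the other genes of the list, such as Nefl and Snap25, overlapped. In the library labelled FOD-CCI replicate 1, the summed level of 8 nerve injury genes was 316 CPM. The 7 sham libraries had 287 to 609 and the other 6 CCI libraries had 1220 to 3242, so this library was at the sham level. Whether its label or its spinal cord content underlies this was not tested. SOD-CT replicate 1 held 145073 CPM of 8 skeletal muscle genes. For most results that include the spinal cord libraries, the value without them follows.

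Across the 17 libraries without spinal cord transcripts, the 7 genes covered a wide range of levels per gene length. By median FPKM (the level per gene length and library size) the order was Gabbr1 (124, range 54.9 to 154), Slc12a2 (43.2, 28.1 to 86.7), Gabra2 (42.2, 23.9 to 56.5), Gabbr2 (23.4, 6.89 to 33.5), Gabra5 (6.01, 1.16 to 26.0), Slc6a13 (3.94, 0.107 to 28.9), and Slc12a5 (0.0845, 0 to 0.246). The pooled range of each gene overlapped that of its neighbor. Library by library, Gabra2 was above Gabbr2 and Slc6a13 above Slc12a5 in 17 of 17, Gabbr1 above Slc12a2 in 16, Gabbr2 above Gabra5 in 14, and Gabra5 above Slc6a13 in 13, whereas Slc12a2 was above Gabra2 in 8 and these could not be ordered. The order changed with injury on FOD, where the 3 FOD-CCI libraries had a median of 21.5 FPKM for Gabra5 and 13.99 for Gabbr2. Slc12a5 was at or near 0 in all 17 libraries. The plot of CPM by group shows the same genes library by library.

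**Figure D1:**
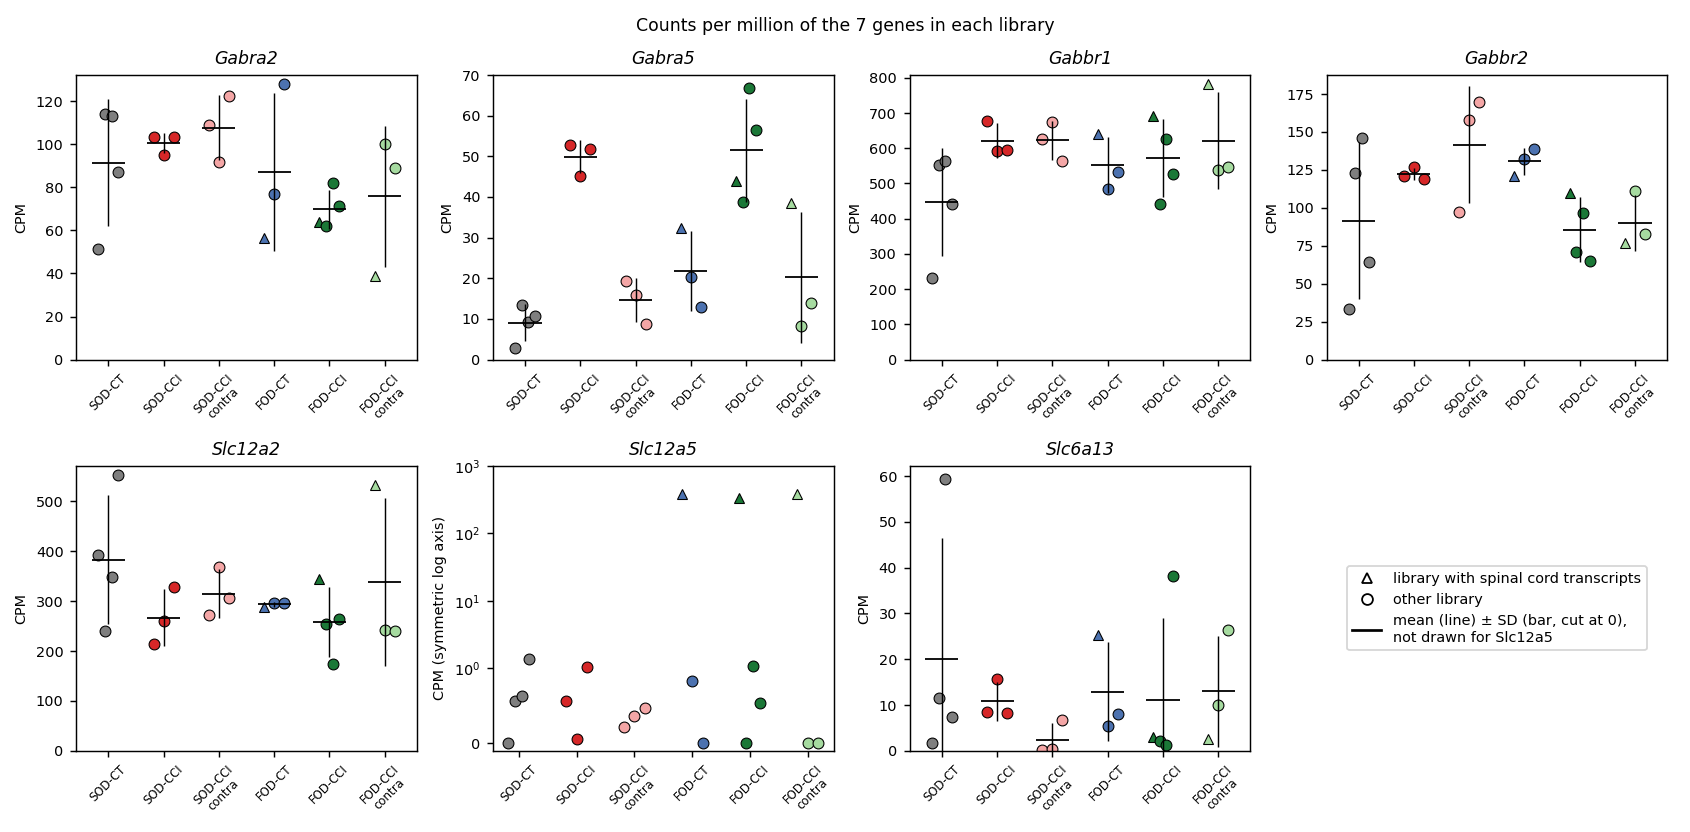
CPM of the 7 genes (vertical axes) in each library of the 6 groups (horizontal axis), with triangles for the 3 spinal cord libraries, lines for group means, and bars for SD. Gabra5 sits at 38.7 to 66.9 CPM in the 7 left CCI libraries, and Slc12a5, on a symmetric log axis, is at 330 to 381 CPM in the 3 spinal cord libraries and stays at or below 1.38 CPM in the others.

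Gabra5 encodes the α5 subunit, which is known from receptors that respond to ambient GABA. Its stretch of 250 bases before the annotated start comes from RefSeq on GRCr8 at chr1:117516607-117516856 (minus strand, written 5′ to 3′). It is shown because Gabra5 was the gene of the 7 that edgeR called with all libraries after the filter on low counts. That of Slc12a5, at chr3:174115583-174115832 (plus strand), is shown because the libraries without spinal cord transcripts nearly lack this gene. Capitals mark the GC box GGGCGG, searched on both strands.
Gabra5: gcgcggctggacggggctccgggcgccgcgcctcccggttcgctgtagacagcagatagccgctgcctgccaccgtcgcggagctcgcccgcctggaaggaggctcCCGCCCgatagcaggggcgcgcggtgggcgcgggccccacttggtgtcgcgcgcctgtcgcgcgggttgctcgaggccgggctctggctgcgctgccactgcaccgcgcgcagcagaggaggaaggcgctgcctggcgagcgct
Slc12a5: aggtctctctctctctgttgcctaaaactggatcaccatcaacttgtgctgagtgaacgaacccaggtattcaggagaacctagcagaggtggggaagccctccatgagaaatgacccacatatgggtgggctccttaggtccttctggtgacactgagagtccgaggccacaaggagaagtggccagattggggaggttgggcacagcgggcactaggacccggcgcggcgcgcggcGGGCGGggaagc
Promoters were found for 5 of the 7 genes. The Gabra5 window was 76.4% G and C and the Slc12a5 window 59.2%, where the median of 33469 promoters was 51.2%. Each of these windows held 1 GC box, and 30.5% of all promoters held at least 1. The AP-1 sequence TGACTCA, bound by factors that include the injury-induced Jun and Atf3, was in neither window and in 4.05% of all promoters.

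Gabra5 was higher in the injured DRG of both diets. In SOD-CT the 4 libraries had 2.90, 13.5, 9.34, and 10.7 CPM, and in SOD-CCI the 3 libraries had 52.7, 45.3, and 51.7 CPM. These groups did not overlap. How many of all genes separate in this way was not counted, here or for the genes below. On FOD the sham libraries had 32.4, 20.2, and 12.9 CPM, and the CCI libraries had 43.8, 38.7, 66.9, and 56.4 CPM, where the first value of each is a spinal cord library. These groups did not overlap either, although 32.4 CPM in FOD-CT replicate 1 came close to 38.7 CPM in FOD-CCI replicate 2. The spinal cord libraries of the sham and contralateral groups had 32.4 and 38.6 CPM, where the other sham and contralateral libraries had at most 20.2 CPM, and the library labelled FOD-CCI replicate 1, in which the nerve injury genes were at the sham level, had 43.8 CPM. The part of spinal cord tissue in these levels was not tested.

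The log2 fold change of Gabra5 was 2.47 ± 0.42 (SE) for SOD-CCI against SOD-CT (edgeR quasi-likelihood test, adjusted p = 0.266). A gene was called where its fold was 1.2 or more and its adjusted p no higher than 0.1, and in this comparison 0% of 14484 genes were called. Gabra5 was the gene with an unadjusted p under 0.05 among the 6 tested, beside 13.8% of all genes. Without the spinal cord libraries the log2 fold change was 2.47 ± 0.41 and was called (adjusted p = 0.0705), beside 0.592% of all genes. It was also called without the library labelled FOD-CCI replicate 1 alone (adjusted p = 0.0722). DESeq2 called it with all libraries (adjusted p = 0.000123), beside 4.1% of all genes. The libraries left out are in neither SOD-CT nor SOD-CCI, but all left groups share the spread in the fit. With only the groups compared in the edgeR fit, 0 of 13425 genes were called (lowest adjusted p = 0.116). Across all settings, Gabra5 was called for injury on SOD in 5 of 25.

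On FOD, the log2 fold change of Gabra5 was 1.24 ± 0.43 and was not called (adjusted p = 0.9997), in a comparison where 0% of genes were called and 4.52% had an unadjusted p under 0.05. Without the spinal cord libraries it was 1.73 ± 0.51 (adjusted p = 0.320), and without the muscle library as well it was 1.72 ± 0.29 and was called (adjusted p = 0.0233), beside 3.47% of all genes. The last of these settings was added after the data were seen. The smaller response on FOD than on SOD was tested as an interaction, which gave −1.23 ± 0.58 (adjusted p = 0.894) and −0.75 ± 0.62 without the spinal cord libraries (adjusted p = 0.867), so that a difference between diets in the response of Gabra5 was not called. In the interaction, 0% of genes were called and 5.01% had an unadjusted p under 0.05, none of which was among the 6 genes.

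The side comparison used the same rats as their own control. Left Gabra5 was 52.7 against 19.2, 45.3 against 15.9, and 51.7 against 8.75 CPM in the 3 SOD-CCI rats. It was 43.8 against 38.6, 38.7 against 8.23, and 66.9 against 13.8 CPM in the 3 FOD-CCI rats. The left side was higher in 6 of 6 rats, by 1.14 to 5.91 times, and the rat with the smallest ratio was the one whose libraries both held spinal cord transcripts. Over both diets the log2 fold change was 1.73 ± 0.30 and was called (adjusted p = 0.0593), as 1 of the 6 tested genes and beside 0.962% of 14549 genes. This call was lost without any one of the 3 SOD-CCI rats or without FOD-CCI replicate 2 or 3 (adjusted p = 0.150 to 0.283), and it was kept without FOD-CCI replicate 1, where the log2 fold change was 2.06 ± 0.20 (adjusted p = 0.000892), beside 7.64% of all genes.

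Within each diet, the log2 fold change between sides was 1.86 ± 0.42 on SOD (adjusted p = 0.221), where 0.131% of genes were called, and 1.59 ± 0.44 on FOD (adjusted p = 0.525), where 0.0137% of genes were called. Both were called without the rat of FOD-CCI replicate 1, at 1.86 ± 0.25 on SOD (adjusted p = 0.00748, 3.14% of all genes called) and 2.27 ± 0.31 on FOD (adjusted p = 0.0277, 0.914% of all genes called). That rat is not in the SOD comparison, but both diets share the spread in the fit. The side comparisons share their left libraries with the injury comparisons. Macrophage genes also moved with Gabra5: over the 17 libraries their summed level had a Spearman correlation with it of 0.65, and the 8 nerve injury genes had one of 0.82. These are descriptions over libraries of the same groups, and the part of macrophages in the level of Gabra5 was not tested.

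Gabra2 encodes the α2 subunit, the most abundant α subunit in these libraries by median FPKM. It was not called in any comparison. Its CPM was 51.2, 114, 113, and 87.3 in SOD-CT, 103, 95.1, and 103 in SOD-CCI, 56.4, 77.1, and 128 in FOD-CT, and 63.8, 62.0, 82.2, and 71.2 in FOD-CCI. The SOD-CCI libraries lay inside the range of SOD-CT. On FOD the CCI libraries did so only with FOD-CT replicate 1, and without the spinal cord libraries 2 of 3 lay below the sham libraries, with a log2 fold change for injury on FOD of −0.49 ± 0.33 in place of −0.31 ± 0.29. After injury, the 4 FOD libraries were all below the 3 SOD libraries, with a log2 fold change of −0.52 ± 0.29 that was not called (adjusted p = 0.859) and that was −0.48 ± 0.29 without the spinal cord libraries, in a comparison with 0% of genes called and 5.4% at an unadjusted p under 0.05, none of them among the 6 genes. DESeq2 called 0.0138% of genes there and none of these. Between sides, Gabra2 had a log2 fold change of −0.04 ± 0.18 (−0.23 ± 0.14 without the rat of FOD-CCI replicate 1) and was higher on the left in 2 of 6 rats. The ratio of Gabra2 to Gabra5 in FPKM had a median of 11.9 in SOD-CT and 2.32 in SOD-CCI, and of 4.43 in FOD-CT and 1.58 in FOD-CCI, with Gabra5 as the denominator. The FOD medians include the spinal cord libraries. In FOD-CT the ratio was 2.02 in the spinal cord library and 4.43 and 11.5 in the others. In FOD-CCI it was 1.69 in the spinal cord library and 1.86, 1.42, and 1.46 in the others.

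**Figure D2:**
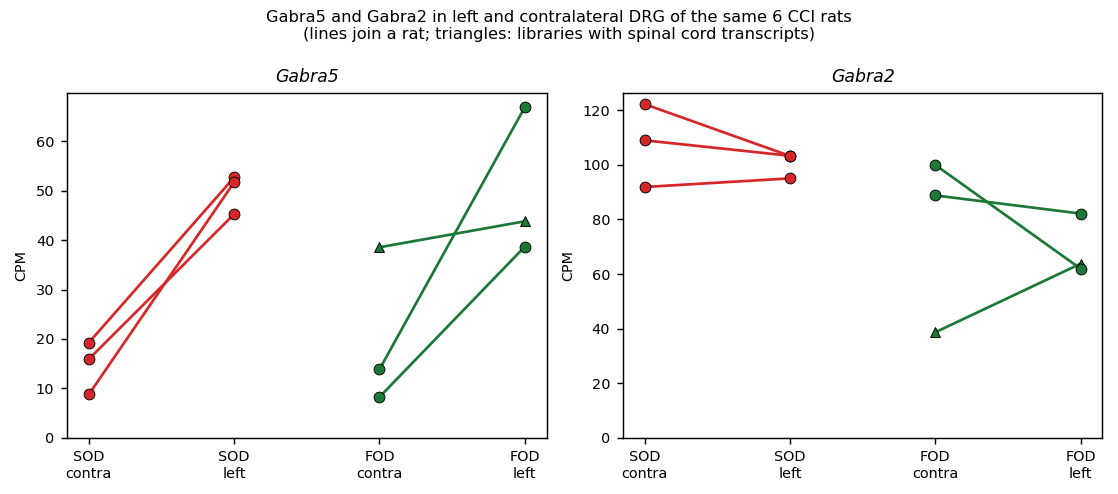
CPM (vertical axes) of Gabra5 and Gabra2 in the left and contralateral DRG of the same 3 SOD-CCI and 3 FOD-CCI rats (horizontal axis), with a line for each rat and triangles for spinal cord libraries. Gabra5 is higher on the left in 6 of 6 rats, and Gabra2 in 2 of 6.

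The wider lists of GABA and chloride genes held 69 genes, among them 19 GABA-A subunits, of which 7 could be tested in the left libraries and 9 in the side comparison. As a share of the summed FPKM of the 19 subunits, Gabra5 had a median of 1.94% in SOD-CT and 11.7% in SOD-CCI. On FOD the medians were 4.45% in sham (2.20% to 8.12%) and 14.9% in CCI (10.2% to 17.7%). The spinal cord library was the highest of the FOD sham libraries and the lowest of the FOD-CCI libraries. Gabrg1, which encodes the γ1 subunit, had a log2 fold change of −0.51 ± 0.23 between diets after injury (adjusted p = 0.859) and of −0.49 ± 0.25 without the spinal cord libraries, and its SOD-CCI libraries had 53.3 to 62.5 CPM against 29.8 to 52.7 CPM in FOD-CCI. The 12 genes of GABA-A receptor clustering and trafficking were all tested, and none was called in any comparison. For injury on SOD, 9 of these genes had a positive log2 fold change, with a median of 0.27, where the median of all genes was −0.01. This was not particular to them, since 36 of the 50 tested genes of the wider lists were positive, with a median of 0.20. On FOD, 6 of the 12 were positive, with a median of −0.10. The muscle library, SOD-CT replicate 1, had the lowest summed level of the 12 genes, at 1655 CPM.

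The GABA-B receptor genes differed little between sides. Gabbr1, whose product binds GABA, was at 232, 553, 564, and 443 CPM in SOD-CT and at 678, 591, and 596 CPM in SOD-CCI. The SOD-CCI libraries were above all SOD-CT libraries, with a log2 fold change of 0.50 ± 0.28 that was not called (adjusted p = 0.436). The lowest value was that of the muscle library, SOD-CT replicate 1, without which the log2 fold change was 0.25 ± 0.21. On FOD, Gabbr1 was at 640, 483, and 534 CPM in sham and 692, 441, 627, and 528 CPM in CCI (log2 fold change 0.06 ± 0.28, and 0.08 ± 0.33 without the spinal cord libraries). The contralateral libraries had 628, 676, and 564 CPM on SOD and 782, 538, and 546 CPM on FOD, the sides differed by −0.03 ± 0.14, and the left was higher in 3 of 6 rats.

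Gabbr2, whose product carries the receptor to the surface and couples it to G proteins, was at 33.3, 123, 146, and 64.3 CPM in SOD-CT and at 121, 127, and 119 CPM in SOD-CCI. The wide spread of SOD-CT contained the SOD-CCI libraries. On FOD it was at 121, 132, and 139 CPM in sham and at 110, 70.6, 96.7, and 64.6 CPM in CCI. The injury estimate was a log2 fold change of 0.44 ± 0.38 for SOD rats and −0.60 ± 0.38 for FOD rats (−0.79 ± 0.46 without the spinal cord libraries). Their difference, the interaction, of −1.04 ± 0.53 was not called (adjusted p = 0.894). Without the spinal cord libraries the interaction was −1.23 ± 0.61 (adjusted p = 0.867), and without SOD-CT replicate 1 the SOD value was 0.13 ± 0.27. Between sides the difference was −0.06 ± 0.19, and −0.18 ± 0.18 without the rat of FOD-CCI replicate 1.

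The ratio of Gabbr1 to Gabbr2 in FPKM lay between 3.79 and 11.6 in the 20 libraries, with a median of 6.21, so that the transcript of the GABA-binding subunit was above that of its partner in every library. Over the 17 libraries, the level of Gabbr2 had a Spearman correlation of 0.71 with the summed level of the sensory neuron genes, and Gabra2 had one of 0.59. The part of neuron content in their levels was not tested.

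Of the 9 genes in the list of the GABA-B receptor and its partners, all were tested and none was called. Cacna1b, which encodes a calcium channel that the receptor inhibits, was between 23.1 and 88.7 CPM in SOD-CT and at 117, 109, and 113 CPM in SOD-CCI, with a log2 fold change of 0.97 ± 0.42 (adjusted p = 0.341). Between sides it was 0.58 ± 0.16 (adjusted p = 0.212), and 0.53 ± 0.17 without the rat of FOD-CCI replicate 1. Kcnj3, which encodes a subunit of the potassium channel that the receptor opens, had a log2 fold change of −0.85 ± 0.34 on FOD (adjusted p = 0.9997) and of −1.17 ± 0.37 without the spinal cord libraries (adjusted p = 0.373), from 16.2, 17.4, and 20.6 CPM in sham to 14.6, 7.80, 10.04, and 7.09 CPM in CCI. Kcnj9, another subunit, had a log2 fold change of 2.96 ± 0.98 between diets after sham surgery (adjusted p = 0.965), where FOD-CT replicate 1 had 12.5 CPM and the other sham libraries 0 to 3.90 CPM. It was 1.76 ± 0.91 without the spinal cord libraries.

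Slc12a5 separated the libraries by spinal cord content and not by group. The spinal cord libraries had 381 CPM (FOD-CT replicate 1), 330 CPM (labelled FOD-CCI replicate 1), and 377 CPM (FOD-CCI contralateral replicate 1). The other 17 had at most 1.38 CPM, and 5 of them had 0, where 3 counts correspond to between 0.0542 and 0.202 CPM. The lowest of the 3 was 239 times the highest of the 17. Of the 39747 genes, 279 had a lowest value in the 3 libraries at least 4 times their highest value in the 17. Without these libraries the CPM of Slc12a5 was 0, 0.566, 0.636, and 1.38 in SOD-CT, 0.563, 0.0621, and 1.04 in SOD-CCI, 0.837 and 0 in FOD-CT, and 0, 1.10, and 0.532 in FOD-CCI. At this depth no difference between groups was detectable.

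**Figure D3:**
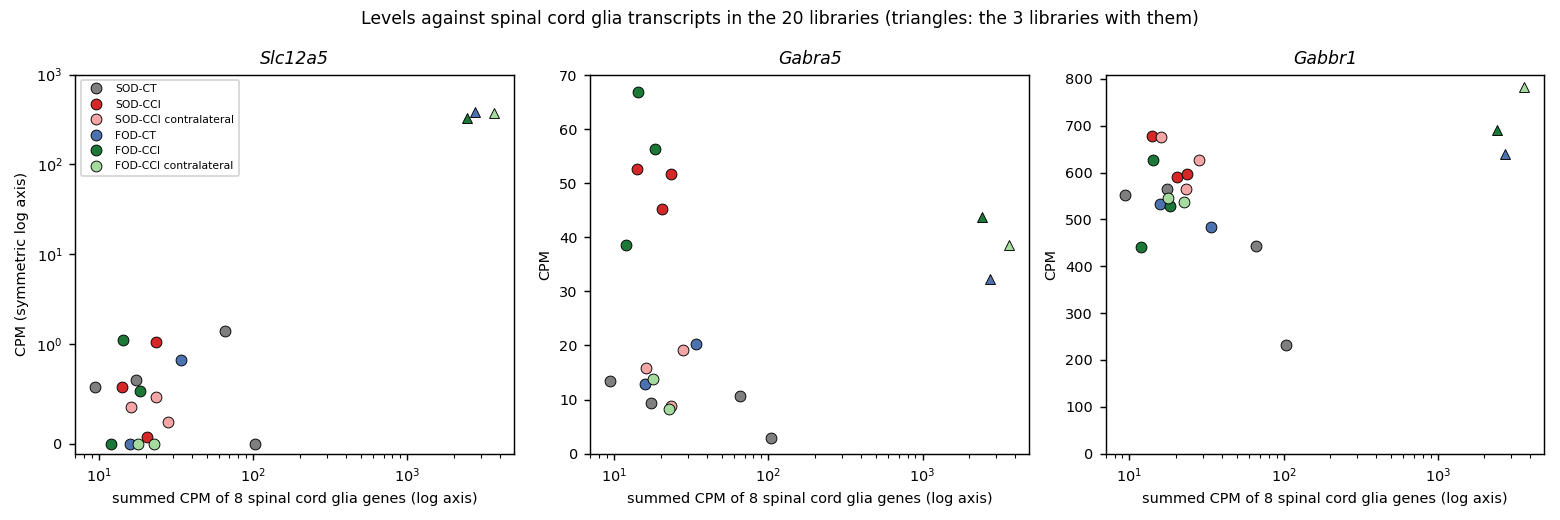
CPM of Slc12a5 (symmetric log axis), Gabra5, and Gabbr1 (vertical axes) against the summed CPM of 8 spinal cord glia genes (horizontal axis, log scale), 1 point for each of the 20 libraries, colored by group. The 3 triangles are the spinal cord libraries, which hold all the Slc12a5 above 1.38 CPM, and their Gabra5, at 32.4 to 43.8 CPM, lies above that of the other sham and contralateral libraries (at most 20.2 CPM).

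Slc12a2, the importer, showed no such separation. It was at 392, 241, 348, and 552 CPM in SOD-CT, 214, 259, and 329 in SOD-CCI, 288, 297, and 297 in FOD-CT, and 344, 253, 173, and 264 in FOD-CCI. The groups overlapped, except that without the spinal cord libraries both FOD-CT libraries were above the 3 FOD-CCI libraries. All injury and side estimates were below 0, at −0.49 ± 0.28 on SOD (adjusted p = 0.444), −0.17 ± 0.28 on FOD, and −0.28 ± 0.15 between sides (adjusted p = 0.531), and none was called. The FOD value was −0.35 ± 0.32 (adjusted p = 0.921) and the side value −0.21 ± 0.15 without the spinal cord libraries. The contralateral libraries had 271, 368, and 306 CPM on SOD and 533, 241, and 241 CPM on FOD, where the value of 533 belongs to the spinal cord library. Over the 17 libraries Slc12a2 had a Spearman correlation of 0.71 with the summed Schwann cell genes and of −0.56 with the nerve injury genes. It had one of 0.62 with the spinal cord glia genes and of −0.54 with both the satellite glia and the macrophage genes. The other cell type lists had between −0.10 and 0.29. The part of these cells in the level of Slc12a2 was not tested.

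The ratio of Slc12a2 to Slc12a5 in FPKM was 0.667, 0.921, and 1.25 in the 3 spinal cord libraries. In the 12 of the other 17 libraries where Slc12a5 was above 0, it ran from 139 to 3682.

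The list of cation-chloride cotransporters and their kinases held 13 genes, of which 10 were tested in the left libraries and 9 between sides, and none was called. Stk39, which encodes the kinase SPAK that activates NKCC1, had a log2 fold change of 0.60 ± 0.25 on SOD (adjusted p = 0.324) and of 0.49 ± 0.17 between sides (adjusted p = 0.319), the latter 0.39 ± 0.17 without the rat of FOD-CCI replicate 1. It was at 149, 185, 160, and 240 CPM in SOD-CT and at 303, 270, and 248 CPM in SOD-CCI. Slc12a4 and Slc12a7, which encode the potassium-chloride cotransporters KCC1 and KCC4, had log2 fold changes of −0.73 ± 0.18 (adjusted p = 0.522) and −0.72 ± 0.21 (adjusted p = 0.558) between sides on FOD. Without the rat of FOD-CCI replicate 1 these were −0.61 ± 0.21 and −0.62 ± 0.24. On SOD the values were −0.07 ± 0.18 and 0.32 ± 0.21. Slc12a3, the thiazide-sensitive cotransporter best known from kidney, stayed at or below 2.71 CPM in every library and had an interaction of −2.41 ± 1.12 (adjusted p = 0.894), and of −2.34 ± 1.10 without the spinal cord libraries. Among the 7 genes of other chloride transport, 6 were tested and none was called.

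Slc6a13 was the most variable of the 6 tested genes. It takes up GABA and taurine and is known from the leptomeninges and from liver and kidney. Its CPM was 1.82, 11.5, 59.3, and 7.47 in SOD-CT, 8.45, 15.7, and 8.29 in SOD-CCI, 25.3, 5.45, and 8.13 in FOD-CT, and 3.08, 2.09, 1.37, and 38.1 in FOD-CCI. A single library set the top of each of SOD-CT and FOD-CCI, and the left groups overlapped. The contralateral libraries had 0.221, 0.404, and 6.64 CPM on SOD and 2.57, 9.98, and 26.4 CPM on FOD.

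Between sides, Slc6a13 was higher on the left in 3 of 3 SOD rats, by 1.25 to 38.9 times, and in 1 of 3 FOD rats. The SOD ratios of 38.3 and 38.9 rest on contralateral libraries with 6 and 12 counts, and that of 1.25 on a library with 299. The log2 fold changes were 3.69 ± 1.32 on SOD (adjusted p = 0.467) and −2.12 ± 1.18 on FOD (adjusted p = 0.751), and neither was called. Without the rat of FOD-CCI replicate 1 they were 3.58 ± 1.06 (adjusted p = 0.156) and −3.25 ± 1.09 (adjusted p = 0.283). On SOD it was, with Gabra5, 1 of 2 of the 6 genes at an unadjusted p under 0.05, beside 8.48% of all genes, and on FOD Gabra5 alone was, beside 6.96%. Over both diets, Gabra5 alone was, beside 11.6%. DESeq2 called Slc6a13 on SOD (log2 fold change 3.84 ± 0.84, adjusted p = 0.000764), where it called 3.24% of all genes, and it called none of the 6 genes but Gabra5 on FOD, where it called 1.81%. Without the filter on low counts and without the rat of FOD-CCI replicate 1, edgeR called both, at 3.62 ± 0.75 on SOD (adjusted p = 0.00272) and −3.20 on FOD (adjusted p = 0.0197), a setting added after the data were seen. The difference between the diets in the side effect of Slc6a13 was not tested.

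The level of Slc6a13 moved with that of 8 leptomeninges genes, with a Spearman correlation of 0.81 over the 20 libraries and of 0.78 over the 17. The summed level of these genes was lowest, at 36.2 and 37.6 CPM, in the 2 SOD-CCI contralateral libraries in which Slc6a13 was lowest, and highest, at 473 and 432 CPM, in SOD-CT replicate 3 and FOD-CCI replicate 4, in which Slc6a13 was highest. The order did not hold throughout. The muscle library had 276 CPM of leptomeninges genes and 1.82 CPM of Slc6a13, and in FOD-CCI replicates 1, 2, and 3 the leptomeninges genes were at 44.8, 70.6, and 92.9 CPM where Slc6a13 was at 3.08, 2.09, and 1.37 CPM. The part of meninges in the differences of Slc6a13 was not tested.

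**Figure D4:**
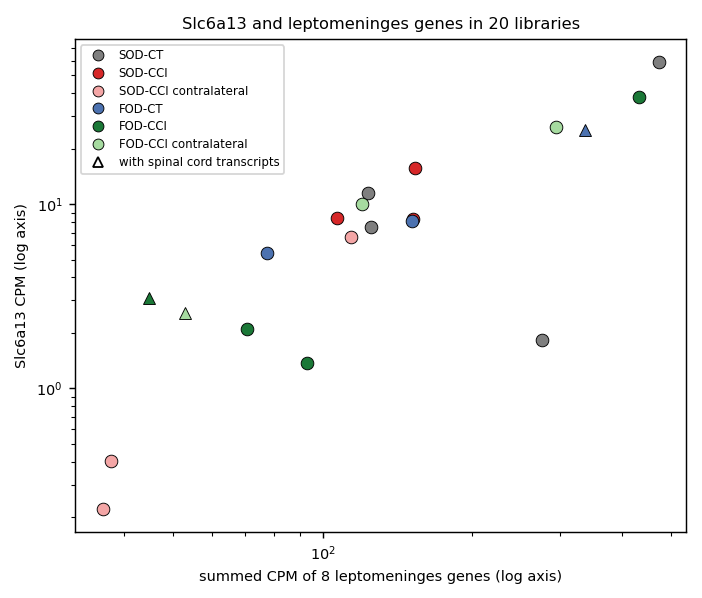
CPM of Slc6a13 (vertical axis, log scale) against the summed CPM of 8 leptomeninges genes (horizontal axis, log scale), 1 point for each of the 20 libraries, colored by group, with triangles for the 3 spinal cord libraries. The points run from SOD-CCI contralateral replicate 1 (36.2 and 0.221 CPM) to SOD-CT replicate 3 (473 and 59.3 CPM), and SOD-CT replicate 1 (276 and 1.82 CPM) lies below libraries with a like leptomeninges level.

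The other genes of GABA synthesis, breakdown, and transport were mostly set by the spinal cord libraries. Of the 69 genes of the wider lists, 8 met the 4-fold rule described for Slc12a5, which was 1 of them. Gad1 and Gad2, the GABA-synthesizing enzymes, had 93.1 to 131 and 15.7 to 26.1 CPM in the 3 libraries and at most 4.10 and 0.141 CPM in the 17. The vesicular transporter Slc32a1 had 142 to 193 CPM against at most 1.99 CPM. The plasma membrane transporter Slc6a11 had 115 to 152 CPM against at most 7.99 CPM. The receptor subunit genes Gabrd and Gabre were low, at no more than 1.91 and 1.53 CPM in the 3 libraries. In the fits, Gad1 had a log2 fold change of 4.57 ± 1.63 between diets after sham surgery (adjusted p = 0.965) and Slc6a11 one of 3.45 ± 1.69 after injury (adjusted p = 0.859), each with FOD replicate 1 as the only high library of its groups. These were 0.47 ± 0.66 and 0.48 ± 1.01 without the spinal cord libraries. Of the 9 genes in the list, 6 were tested and none was called.

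Diet after sham surgery gave no call. The log2 fold change of Gabra5 in FOD-CT against SOD-CT was 1.28 ± 0.41 (adjusted p = 0.965), in a comparison with 0% of genes called and with 1 of the 6 genes, Gabra5, at an unadjusted p under 0.05 beside 3.39% of all genes. It was 0.86 ± 0.44 without the spinal cord libraries. After injury the diets differed by 0.05 ± 0.41, and by 0.12 ± 0.42 without these libraries. The estimates for the other 5 genes between diets ran from −0.60 ± 1.17 (Slc6a13) to 0.53 ± 0.38 (Gabbr2) after sham surgery and from −0.52 ± 0.29 (Gabra2) to 0.05 ± 1.16 (Slc6a13) after injury. Leaving out the spinal cord libraries, they ran from −1.56 ± 1.40 (Slc6a13) to 0.57 ± 0.44 (Gabbr2) and from −0.66 ± 0.42 (Gabbr2) to 0.36 ± 1.23 (Slc6a13). The plot of log2 fold changes sets these beside the injury and side comparisons.

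**Figure D5:**
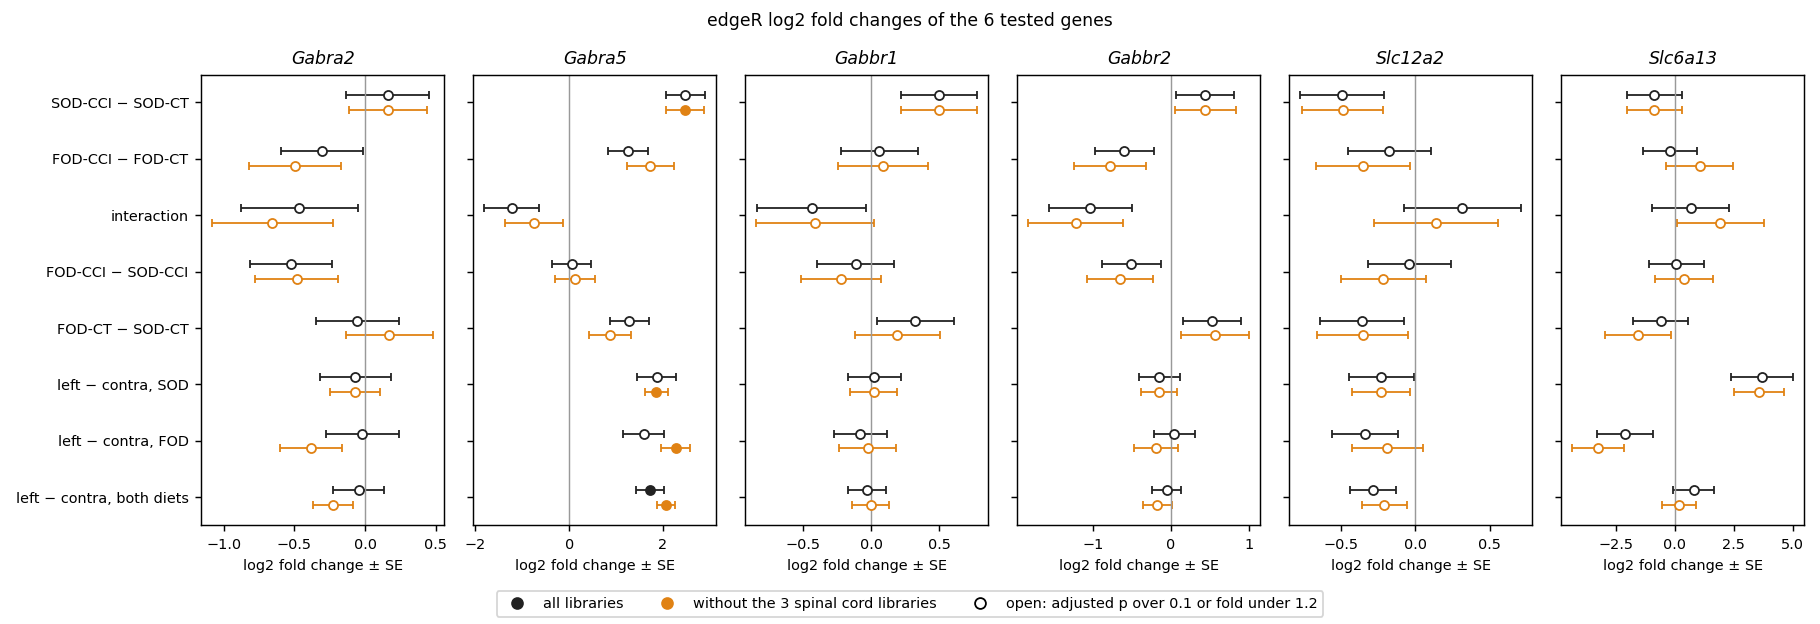
edgeR log2 fold changes with SE (horizontal axes) of the 6 tested genes in 8 comparisons (rows), with all libraries in black and without the 3 spinal cord libraries in orange, filled where the adjusted p was at most 0.1 and the fold at least 1.2. Filled points occur for Gabra5 only, at 1.73 between sides with all libraries and in 4 comparisons without the spinal cord libraries.

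The genes whose levels ran most like each of the 7 were found by Spearman correlation of CPM. Over the 17 libraries, Gabra5 was most like Serpina1 (0.97), Emp3 (0.94), and Padi3 (0.91), and over all 20 most like Vgf (0.93), Nsg1 (0.91), and the unnamed locus LOC108352323 (0.91). Gabra2 was most like Cdkl2 (0.94) and Avil (0.92), the latter of which is in the sensory neuron list. Gabbr1 was most like Irgq (0.97), Gabbr2 most like Tnk2 (0.97), and Slc12a2 most like Sgms1 (0.90). Slc6a13 was most like Slc16a11 (0.94), Ptgds (0.92), and Fbln1 (0.91) over the 17 libraries, and over all 20 most like Kcnj13 (0.90) and Slc13a4 (0.90), the latter of which is in the leptomeninges list. Slc12a5 was left out because its median was under 1 CPM.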

How the data were processed

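RNA from DRG was sequenced as poly-A libraries. The authors trimmed reads with fastp, aligned them with HISAT2 (version 2.0.5), and counted them per gene with featureCounts (version 1.5.0-p3), and they deposited raw counts and FPKM. The genome build, strand setting, and treatment of reads with several matches are not given in the sources used here, so gene families and overlapping genes may share reads. FPKM was used as deposited, only to compare genes.

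Groups were taken from the labels, in which the CT libraries read control, left side. That these rats had sham surgery was taken from the study's design. The study's text in places calls its controls contralateral, but the labels give the CT libraries other rat numbers than the CCI libraries. Genes with at least 10 counts in 90% of libraries (13 of 14 left, 11 of 12 in the side comparison) were tested with edgeR 4.0.16 in R 4.3.3 (quasi-likelihood test, TMM scaling, Benjamini-Hochberg adjustment over all genes tested), with 1 mean per group for the left libraries and the rat as a block between sides. SE is the log2 fold change divided by the square root of F. Both DRG of a rat deviated together from their group means (r = 0.113 to 0.430 in 6 of 6 rats). The same-numbered FOD-CT and FOD-CCI libraries, from different rats, did so too (r = 0.191 to 0.429), and their block changed no call among the 7 genes. Comparisons on a diet share libraries. Alternatives were DESeq2 1.42.0, other scalings and filters, other samples in the fit, and leaving out libraries. The scripts were tested on simulated counts.

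Beside the 7 genes, the text names the genes of 6 fixed lists that were called, had 1 of the 3 smallest p-values of a comparison, or were at least 4 times higher in the spinal cord libraries. Some genes that this rule picks are not reported here. The members and lists were chosen with earlier results of these data known.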

Additional observations from a re-analysis of the deposited data

Results flagged for a closer look

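In 3 cases the highest of 4 libraries of a group stood far from the other 3, by Dixon's test at the 95% level. Chance gives this in about 1 of 20 groups if values are normally distributed, and CPM was used without a log. Only SOD-CT and FOD-CCI, the groups of 4 libraries, were examined, for each of the 7 genes. Slc12a5 was at 330 CPM in the library labelled FOD-CCI replicate 1 and at no more than 1.10 CPM in the other FOD-CCI libraries. That library was already set apart by its spinal cord transcripts, so its flag was fixed in advance and is no separate result. Slc6a13 was at 59.3 CPM in SOD-CT replicate 3, where the other SOD-CT libraries had 1.82 to 11.5 CPM. Slc6a13 was at 38.1 CPM in FOD-CCI replicate 4, where the other FOD-CCI libraries had 1.37 to 3.08 CPM. Both of these libraries were also highest in leptomeninges genes, at 473 and 432 CPM.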

How the results depend on the processing

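Of the log2 fold changes recomputed for the named genes, 1179 kept their direction and side of the threshold, 38 became called, 12 lost a call, and 59 changed sign. Causes were not tested. Slc12a5 failed the filter and gave no main value. For Slc12a5, depth limits what can be seen to about 3 counts per library. Of the estimates that changed sign, those of Slc6a13 had the widest ranges.

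Numbers of genes called (of the 7 genes in parentheses, where any was called) moved as follows. DESeq2 called 2 for diet after injury, 42 for the interaction, 21 for injury on FOD, 594 (1) for injury on SOD, 264 (1) for side on FOD, 472 (2) for side on SOD, and 790 (1) for both diets. Without the spinal cord libraries the numbers were 87 (1) for injury on SOD, 137 (1) for side on FOD, 471 (1) for side on SOD, and 1146 (1) for both diets, and without the muscle library as well 526 (1) for injury on FOD and 200 (1) for injury on SOD. Without any filter they were 61 (1), 220 (1), and 456 (1) for side on FOD, on SOD, and on both diets, and with filterByExpr 5 and 39 for side on FOD and on SOD. Without filter and spinal cord libraries they were 1 for diet after sham surgery, 1 for the interaction, 8 for injury on FOD, 90 (1) for injury on SOD, 605 (2) for side on FOD, 871 (2) for side on SOD, and 1654 (1) for both diets. Leaving out 1 replicate gave 0 to 43 for injury on FOD, 0 to 47 (0 to 1) for injury on SOD, 0 to 137 (0 to 1) for side on FOD, 0 to 471 (0 to 1) for side on SOD, and 8 to 1146 (0 to 1) for both diets.

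The replicate number as a block in the left libraries called 1 gene for injury on SOD, none of the 7, and gave Gabra5 2.56 on SOD. Same-numbered SOD-CT and SOD-CCI libraries share only a number (r = −0.0760 to 0.0769). Under that block, diet after injury changed sign for Gabra5 (−0.015) and Slc6a13 (−1.78), and the interaction for Slc6a13 (−1.64). Without the rat block, 0, 0, and 10 genes were called for side on FOD, on SOD, and on both diets, with 0 of the 7, and Slc6a13 was at −0.21 for both diets.

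Other log2 fold changes changed sign as follows. With library totals, diet after injury was −0.010 for Gabra5 and −0.0067 for Slc6a13, and diet after sham surgery 0.0088 for Gabra2. Without the spinal cord libraries, diet after sham surgery was 0.17 for Gabra2, injury on FOD 1.05 for Slc6a13, and side on FOD −0.20 for Gabbr2. Without the filter as well, these were 0.17, 1.05, and −0.15, and Gabbr1 was at 0.024 for side on FOD, −0.0065 for side on SOD, and 0.0085 for both diets. Without spinal cord and muscle libraries, Gabbr1 was at −0.020 for diet after sham surgery, Slc6a13 at 1.01 for injury on FOD, and Gabra2 at −0.046 for injury on SOD. For side on FOD, Gabra2 was at 0.011 with filterByExpr and 0.026 without filter, and for side on SOD Gabbr1 was at −0.0065 without filter.

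With 1 replicate left out, diet after injury ran from −0.10 to 0.17 for Gabra5, −0.21 to 0.14 for Slc12a2, and −2.31 to 0.42 for Slc6a13. Diet after sham surgery ran from −0.43 to 0.17 for Gabra2 and −1.56 to 0.93 for Slc6a13, and the interaction from −1.71 to 1.61 for Slc6a13. Injury on FOD ran from −0.049 to 0.19 for Gabbr1, −0.53 to 0.069 for Gabra2, and −2.58 to 0.74 for Slc6a13, and injury on SOD from −0.066 to 0.29 for Gabra2 and −1.27 to 0.66 for Slc6a13. Side on FOD ran from −0.23 to 0.028 for Gabbr1, −0.20 to 0.39 for Gabbr2, and −0.39 to 0.32 for Gabra2, side on SOD from −0.036 to 0.098 for Gabbr1 and −0.39 to 0.0069 for Gabbr2, and both diets from −0.10 to 0.015 for Gabbr1, −0.18 to 0.10 for Gabbr2, and −0.23 to 0.11 for Gabra2.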
